A study of Mus musculus with 4 samples.

Results

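Cell adhesion genes of the nectin-like (Cadm) and cadherin families, with Ncam1, were described in ATDC5 cells after knockdown of Chadl. The set holds 8 genes, Cadm1, Cadm2, Cadm3, Cadm4, Cdh2, Cdh11, Cdh13 and Ncam1. Cadm1 was chosen by its measured values in these arrays, a lower signal after knockdown. The other genes were added as its family, as cadherins known from mesenchymal cells and as a neural cell adhesion molecule. Every probe set with exactly 1 of these symbols was taken, which gave 22 of 45037 probe sets and 7 of the 8 genes. Cadm2 was not analysed here. Because Cadm1 was picked for this contrast, its values are a description and carry no test.

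The Cadm genes encode nectin-like molecules, membrane proteins with immunoglobulin-like loops outside the cell and a short tail inside that binds FERM-domain and PDZ-domain scaffolds. Nectin-like molecules bind between cells without calcium, either to themselves or to each other. Cadherins bind between cells in the presence of calcium and are tied to actin through the catenins. In the limb bud, N-cadherin (Cdh2) and NCAM (Ncam1) are known for their part in the condensation of mesenchymal cells that comes before cartilage forms.

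ATDC5 is a mouse chondrogenic cell line. Both groups received 30 nM of a 27-mer RNA duplex, called shRNA in the labels, with Lipofectamine 2000, were moved to differentiation medium after 16 h and were labelled as differentiated for 5 days. The 2 control arrays had a universal scrambled duplex and the 2 knockdown arrays a duplex against Chadl. The design thus gives 1 comparison, in 1 cell line and with 1 duplex against Chadl. The sequence that the labels give for it, the only reagent that sets the groups apart, is shown here 5′ to 3′ as printed there, with no part marked. It has 25 nucleotides, although the duplex is called a 27-mer, and its other strand is not given in the sources used here.
Chadl duplex: acaagguagagaaacaaagagacca

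RMA-normalized log2 signals were given for every probe set, with array medians between 4.24 and 4.25. Chadl, which encodes a leucine-rich repeat protein of cartilage, had a signal of 4.91 and 4.84 with the scrambled duplex, of 4.29 in knockdown 1 and of 4.64 in knockdown 2. Chadl was thus lower in both knockdown arrays, and further in knockdown 1, but did not pass over all genes (log2 difference -0.41, SE 0.12, adjusted p = 0.728, limma). It lay 1.49-fold below the control mean in knockdown 1 and 1.18-fold below it in knockdown 2. Its only probe set was at the 47.1st percentile of signal over all genes, below the median. Over all 17097 genes the SD of the log2 difference was 0.10 between the controls and 0.20 between the knockdowns, so values of knockdown 1 and knockdown 2 are given separately below. Of 10 chondrogenic markers 6 reached the median signal of all genes, among them Sox9 at 7.47 to 7.52 and Col2a1 at 8.23 to 9.17 over the 4 arrays, while Comp, Matn3, Hapln1 and Sox5 were dim, at percentiles of signal from 36.1 to 40.2. The titles name biological replicates but do not state that these were separate cultures. The p-values then measure only how far these arrays spread, which may be technical, and the number of arrays limits all precision. In RNA from a whole culture, fewer cells of a type and less RNA per cell cannot be told apart.

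Cadm1, also known as SynCAM1, nectin-like 2 or TSLC1, had a lower signal in both knockdown arrays than in both controls at each of its 4 probe sets. Its brightest probe set (1417378_PM_at) read 7.74 and 7.71 in the controls, 5.61 in knockdown 1 and 7.26 in knockdown 2. The mean log2 difference was -1.29, or 2.45-fold, made up of -2.11 in knockdown 1 and -0.47 in knockdown 2. The 2 controls lay 0.03 apart and the 2 knockdowns 1.64 apart, so that the groups did not overlap but the size of the difference was set mostly by knockdown 1. With knockdown 2 alone the signal was 1.39-fold below the control mean, and with knockdown 1 alone it was 4.32-fold below.

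The other Cadm1 probe sets had the same order of arrays. Probe set 1417377_PM_at read 7.52 and 7.43 in the controls against 4.65 and 7.02 in the knockdowns. Probe set 1417376_PM_a_at read 6.96 and 6.95 against 4.78 and 6.61. The dimmest, 1431611_PM_a_at, read 5.57 and 5.54 against 4.19 and 5.31. In knockdown 1 the 4 probe sets lay between 2.57-fold and 7.11-fold below the control mean, and in knockdown 2 between 1.19-fold and 1.39-fold below it. Among 17097 genes, each read by its brightest probe set, Cadm1 had the 4th lowest mean difference, the 5th lowest in knockdown 1 and the 24th lowest in knockdown 2. A mean more than 2-fold lower was seen for 0.0526% of genes, and since Cadm1 was chosen for its difference nothing is read from its place there.

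**Figure D1:**
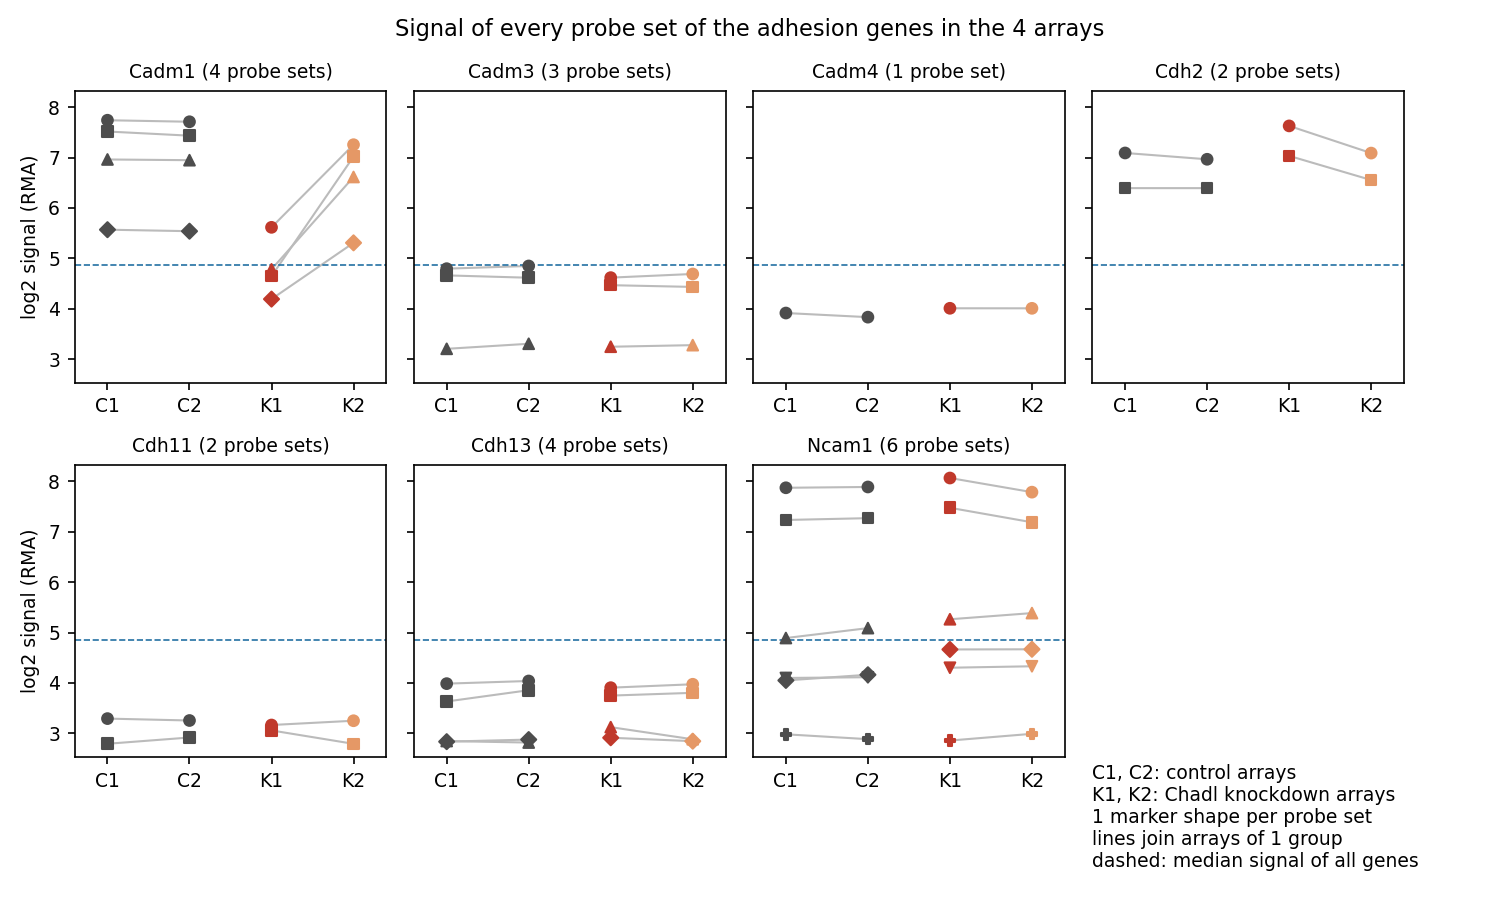
Log2 signal after RMA (vertical axis) of each of the 22 probe sets in the 2 control arrays (C1, C2) and the 2 knockdown arrays (K1, K2), with 1 panel per gene, 1 marker shape per probe set and a dashed line at the median signal of all genes (4.86). All 4 Cadm1 probe sets are lowest in knockdown 1, while both Cdh2 probe sets are highest there.

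Cadm3 and Cadm4, the family members with probe sets besides Cadm1, differed little from control and in opposite directions. Cadm3 encodes a nectin-like molecule known mainly from the nervous system. Its brightest probe set read 4.79 and 4.85 in the controls against 4.62 and 4.69 in the knockdowns, and the next read 4.66 and 4.61 against 4.47 and 4.43. At both, the groups did not overlap and the 2 knockdown arrays were alike. The brightest differed by -0.17 (SE 0.08, 95% confidence interval -0.37 to 0.03, adjusted p = 0.752, limma), which did not pass. The third Cadm3 probe set, at the 11.9th percentile of signal over all probe sets, read 3.20 and 3.30 against 3.24 and 3.28, within the controls' range. Cadm4, known from epithelia and from Schwann cells, was read by 1 probe set at 3.91 and 3.83 in the controls, and at 4.01 in each knockdown array. Both Cadm4 knockdown values lay above both controls (log2 difference 0.13, SE 0.08, 95% confidence interval -0.05 to 0.32), without passing (adjusted p = 0.764, limma). In knockdown 1 the log2 difference from the control mean was -2.11 for Cadm1, -0.20 for Cadm3 and 0.14 for Cadm4. Cadm4 lay at the 39.5th percentile of signal over all probe sets, a level at which RMA can compress a change.

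Cdh2, which encodes N-cadherin, was higher in knockdown 1 at both of its probe sets and close to control in knockdown 2. The brighter probe set read 7.09 and 6.97 in the controls, 7.63 in knockdown 1 and 7.09 in knockdown 2, so that knockdown 2 lay within the controls' range. The other (1449244_PM_at) read 6.39 and 6.39 against 7.03 and 6.55, with both knockdown arrays above both controls. In knockdown 1 the probe sets were 1.52-fold and 1.56-fold above the control mean, and in knockdown 2 they were 1.04-fold and 1.12-fold above it. The brighter probe set differed by 0.33 on the log2 scale (SE 0.17, 95% confidence interval -0.08 to 0.74) and did not pass over all genes (adjusted p = 0.757, limma). Without knockdown 2 the difference was 0.60 and passed (adjusted p = 8.6e-06, limma), in a fit that takes the lone knockdown array to vary like the controls and that passed 15.1% of all genes. Without knockdown 1 it was 0.06 and did not pass (adjusted p = 0.76, limma), while 3.28% of all genes passed. The 2 controls lay 0.13 apart at this probe set and the 2 knockdowns 0.54 apart.

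Cdh11 and Cdh13 were dim on every array, and no difference at these levels passed. Cdh11, or OB-cadherin, is known from mesenchymal cells and osteoblasts, yet its probe sets ranked at the 11.4th and the 3.46th percentile of all probe sets by signal. The brighter read 3.29 and 3.25 in the controls against 3.16 and 3.25 in the knockdowns, and the other 2.79 and 2.92 against 3.06 and 2.79. The 2 probe sets differed in sign, -0.07 and 0.07, so they give Cdh11 no direction. Cdh13 encodes T-cadherin, which is held in the membrane by a lipid anchor and lacks the cytoplasmic tail that binds catenins. Its 4 probe sets lay between the 3.14th and the 40.8th percentile, with differences from -0.07 to 0.17, 1 of them lower and 3 higher. The brightest read 3.99 and 4.04 against 3.91 and 3.97, and the one with the largest difference read 2.85 and 2.82 against 3.12 and 2.88. By their brightest probe sets Cdh11 differed by -0.07 (95% confidence interval -0.23 to 0.10, adjusted p = 0.867, limma) and Cdh13 by -0.07 (95% confidence interval -0.26 to 0.11, adjusted p = 0.87, limma). A fall of either transcript could hardly be seen at such signals.

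Ncam1, the neural cell adhesion molecule, is spliced into forms that cross the membrane and a form held by a lipid anchor, and its 6 probe sets did not behave alike. The 2 bright probe sets followed knockdown 1 only. The brightest (1426864_PM_a_at) read 7.87 and 7.89 in the controls, 8.07 in knockdown 1 and 7.79 in knockdown 2, and the next read 7.23 and 7.27 against 7.48 and 7.19. In both, knockdown 1 lay above and knockdown 2 below the 2 controls.

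A further 3 Ncam1 probe sets were higher in both knockdown arrays, with mean differences from 0.21 to 0.56. They lay between the 49.0th and the 67.0th percentile of signal over all probe sets. Of these, 1425126_PM_at and 1450438_PM_at read below the median signal of all genes (4.86) on every array. Probe set 1425126_PM_at read 4.05 and 4.16 in the controls against 4.66 and 4.67 in the knockdowns, 1.47-fold and 1.48-fold above the control mean. Probe set 1450437_PM_a_at read 4.89 and 5.09 against 5.26 and 5.39. Probe set 1450438_PM_at read 4.10 and 4.11 against 4.30 and 4.33. The first differed by 0.56 (SE 0.08, 95% confidence interval 0.36 to 0.76), with a gap of 0.11 between the controls and of 0.0035 between the knockdowns. In the fit over all 45037 probe sets, where 0.00222% passed, it did not pass (adjusted p = 0.352, limma), though that was the lowest adjusted p among the 18 probe sets tested. These 3 probe sets were singled out after their values were seen. The sixth, at the 4.04th percentile, differed by -0.01. Which splice forms each probe set reads is not given in the sources used here.

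By its brightest probe set Ncam1 differed by 0.05 (SE 0.10, 95% confidence interval -0.19 to 0.28, adjusted p = 0.943, limma). Without knockdown 1 the difference was -0.09 (adjusted p = 0.414, limma), and without knockdown 2 it was 0.19 and passed (adjusted p = 0.0186, limma), beside the 15.1% of all genes that passed in that fit. With the mean of all 6 probe sets the difference was 0.20 (adjusted p = 0.708, limma).

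**Figure D2:**
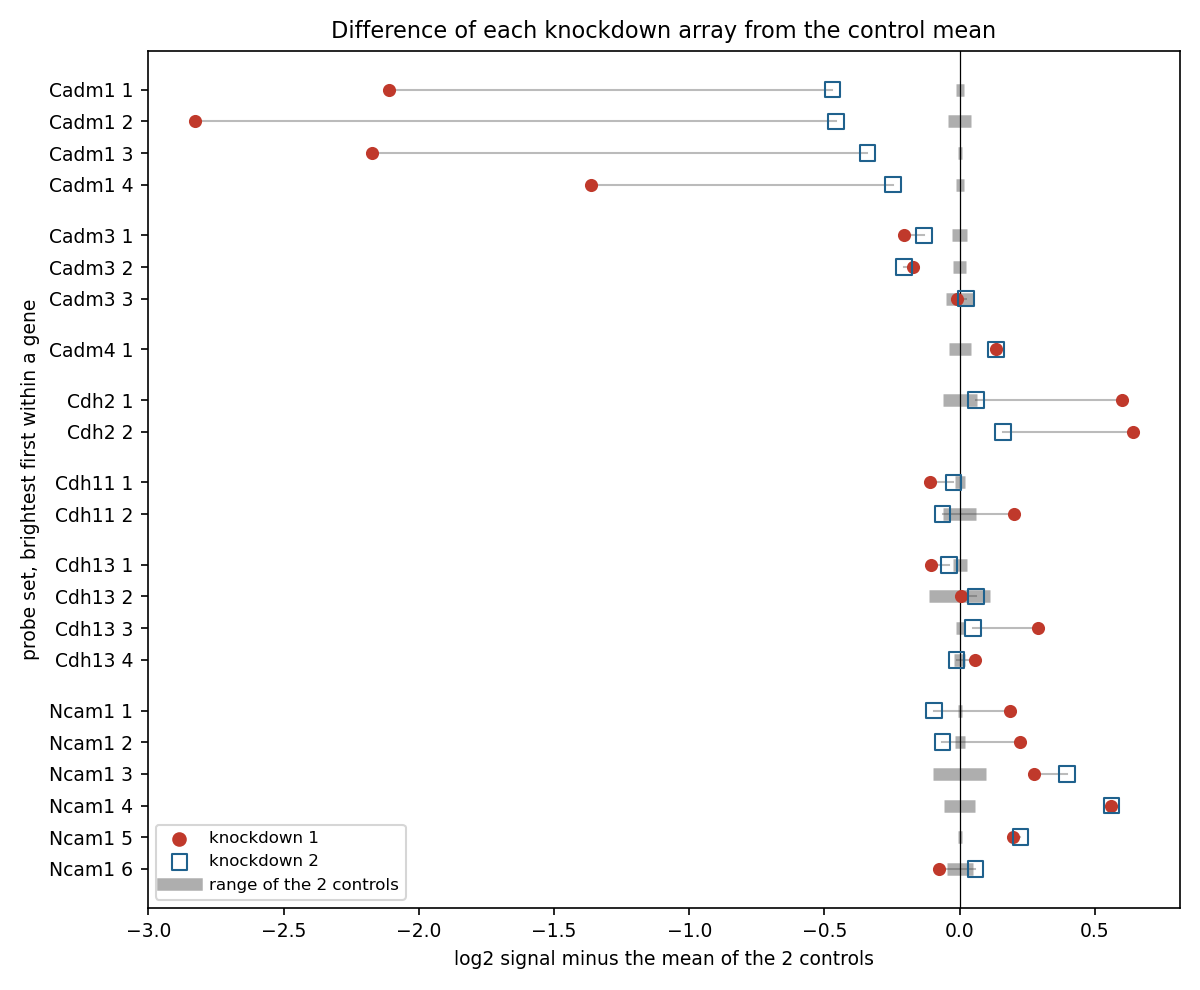
Log2 signal of knockdown 1 (filled circles) and knockdown 2 (open squares) minus the mean of the 2 controls (horizontal axis), for the 22 probe sets ordered by gene and then by signal; grey bars span the 2 controls. The markers lie far apart for Cadm1 and Cdh2 and nearly coincide for Cadm4 and for Ncam1 probe sets 4 and 5.

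Of the 6 genes other than Cadm1 none passed over all genes, where 0% of 17097 passed in limma, and none had an unadjusted p under 0.05, where 6.67% of all genes did. By brightest probe set, 3 of these 6 genes (Cadm3, Cdh11, Cdh13) had both knockdown arrays below both controls, as 17.1% of all genes did, and 1 (Cadm4) had both above, as 21.2% did. With so few genes, 2 of them dim and with probe sets of opposite sign, this is not a result about the set. Of their 18 probe sets, which share transcripts within a gene, 4 lay below both controls (19.9% of all probe sets) and 6 above (18.6%), and 8 overlapped. At an unadjusted p under 0.05 there were 4 probe sets, all higher in knockdown (3.42% of all probe sets, limma). They were 1 of Cdh2 and the 3 of Ncam1 named above, and none passed after adjustment. Without knockdown 2, 11 of the 22 probe sets, now with Cadm1, lay above the controls in place of 6, and 9 below in place of 8. Both counts below hold the 4 Cadm1 probe sets, whose gene was chosen for its fall, so nothing is read from them. With 1 knockdown array left, 36% of all probe sets lay above and 40.6% below.

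The genes whose 4-array profile was closest to that of Cadm1 were Smpd3, Slc8a3, Npnt, Tmem119, Adgrd1 and Fam107a. Likeness was the Euclidean distance in log2 units over the 4 arrays, after each gene's control mean was subtracted, among 8354 of the 8549 genes at or above the median signal, with predicted genes, unnamed clones and Cadm1 itself skipped. Smpd3, a sphingomyelinase gene known for its need in bone and cartilage mineralization, was nearest at a distance of 0.22, with signals of 7.0 and 7.07 in control arrays, 5.10 in knockdown 1 and 6.69 in knockdown 2. The sodium-calcium exchanger gene Slc8a3 followed at 0.27, with 6.20 and 6.18 against 4.32 and 5.83. Npnt, which encodes the integrin ligand nephronectin, lay at 0.35, and 1 of its 5 probe sets pointed the other way. Tmem119, known from osteoblasts, lay at 0.40, the receptor gene Adgrd1 at 0.53 and Fam107a at 0.61. The median distance over the 8354 genes was 2.17, and a gene with no difference on any array would lie at 2.16. All 6 were lowest in knockdown 1 and below both controls in knockdown 2, and since they were picked for likeness no test applies to them. The distances of the other adhesion genes from Cadm1 ran from 1.94 for Cadm3 to 2.76 for Cdh2, although of these only Cdh2 and Ncam1 reached the median signal.

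Osteoblast and mineralization markers were lower in the same arrays as Cadm1. Of 12 listed, 9 were analysed here, Smpd3 among them, while Alpl, Runx2 and Spp1 were not. Both knockdown arrays lay below both controls for 8 of the 9, beside 17.1% of all genes. The exception, Phex, read 4.84 and 4.82 against 5.69 and 4.61. The mean log2 signal of the 9 markers was 7.49 and 7.48 in the controls, 6.07 in knockdown 1 and 7.13 in knockdown 2. The median difference of the 9 markers was -0.80 over both arrays, beside 0.01 over all genes. Taken separately, their median was -1.19 in knockdown 1 and -0.26 in knockdown 2. Ibsp, the bone sialoprotein gene, differed most (-2.13, SE 0.56, adjusted p = 0.694, limma), followed by the channel gene Panx3 (-1.68), Smpd3 (-1.15) and the bright receptor gene Pth1r (-0.81). None of the 9 passed, where 0% of all genes did. Earlier results of these data were known when the list was made, so its direction is no independent evidence. Chondrogenic markers had a median of -0.04 over 10 genes, -0.07 in knockdown 1 alone and -0.01 in knockdown 2 alone. Of these, 2 lay below both controls, Hapln1 (log2 difference -0.41) and Sox5 (-0.25), and 1, Col11a1, above (0.15). The median hides larger differences in knockdown 1, where Col2a1 differed by -0.82, Col9a1 by -0.68, Hapln1 by -0.62 and Sox5 by -0.35. In the same array Sox6 and Col11a1 differed by 0.10 each and Sox9 by 0.01. In knockdown 2 Col2a1 and Col9a1 were higher than the control mean, by 0.12 and 0.17. The mean log2 signal of the 10 markers was 6.11 and 6.17 in the controls, 5.90 in knockdown 1 and 6.16 in knockdown 2. The marker lists do not show which cell types the culture held. A part of any cell type in the Cadm1 difference was not tested.

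**Figure D3:**
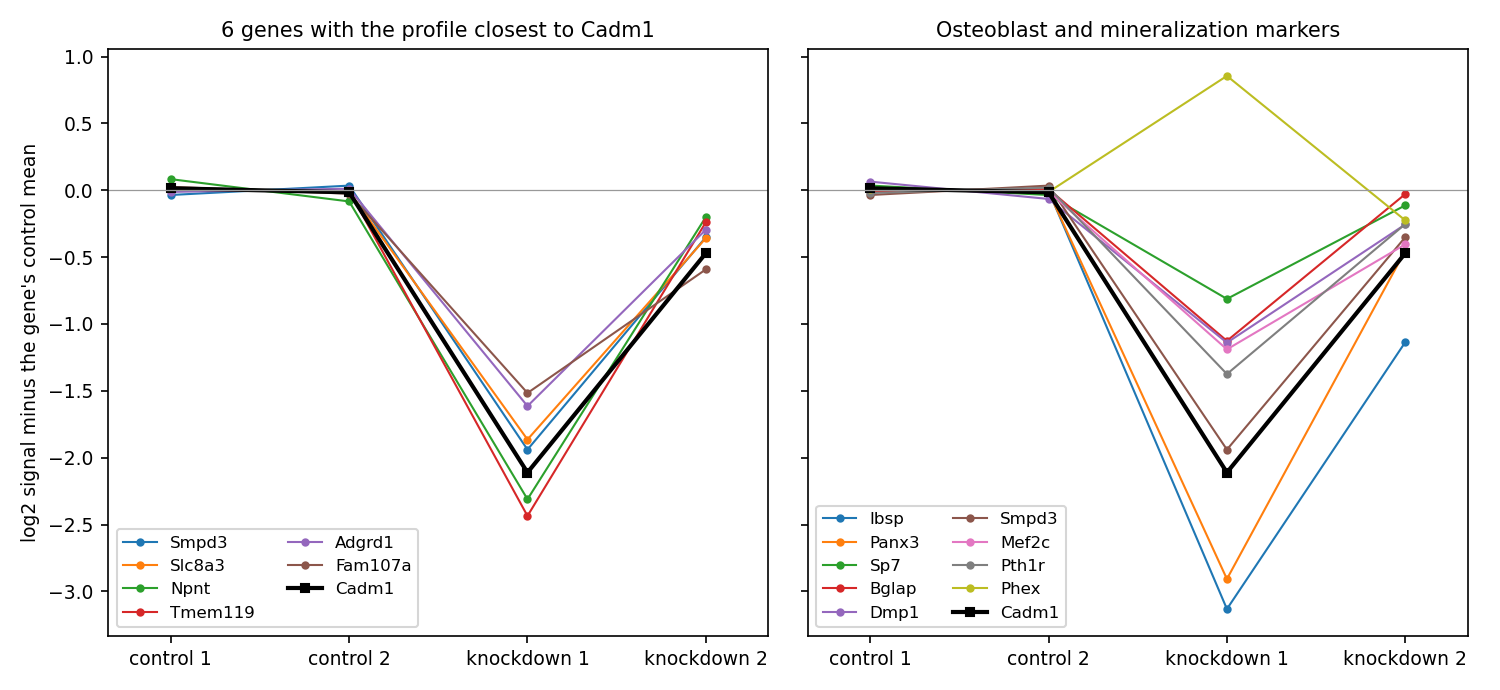
Log2 signal minus the gene's own control mean (vertical axis) in each of the 4 arrays, for Cadm1 (black squares) with the 6 genes closest to it (left) and with the 9 osteoblast and mineralization markers (right); lines only link the points of a gene. Cadm1 lies at -2.11 in knockdown 1 and -0.47 in knockdown 2, and every marker but Phex is also lower in both.

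Genes that work with these adhesion molecules showed small differences. In none of 9 lists did a gene pass in limma, where 0% of all 17097 genes passed, so this says nothing particular about the lists. The counts given for these lists stand beside 17.1% of all genes with both knockdown arrays below both controls, 21.2% with both above, and 6.67% at an unadjusted p under 0.05. Of the 19 cadherins analysed, only Cdh2 reached the median signal of all genes, and the next brightest, Cdh22, differed by -0.03. The cadherin median was -0.04, with 8 genes below both controls and 3 above, and at an unadjusted p under 0.05 there was 1, Cdh16, a dim kidney cadherin, at -0.28. Among the 11 catenins and linkers, which tie cadherins to actin, the median was 0.04, with 2 below and 6 above both controls. Beta-catenin (Ctnnb1) read 11.92 and 11.96 in the controls against 11.78 and 11.96 in the knockdowns. The actin linker vinculin (Vcl) differed by -0.10, and its 2 probe sets pointed in opposite directions. Of those picked for the largest non-overlapping differences, Pkp4 differed by 0.15, and Ctnnd1, which encodes p120-catenin, and Ctnnal1 by 0.17 each, though 1 probe set of each of these 2 genes was lower.

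Genes listed as cytoplasmic partners of Cadm proteins, most of them scaffolds and 15 in all, had a median of -0.02, with 5 below both controls and 3 above. Tiam1, a Rac activator, read 4.85 and 4.96 in the controls against 5.19 and 5.22 in the knockdowns (log2 difference 0.30, unadjusted p = 0.0114, adjusted p = 0.716, limma), and 1 of its 3 probe sets was lower. Epb41l3, the FERM-domain scaffold known as DAL-1 or 4.1B, read 8.26 and 8.21 against 8.59 and 8.28, so that its difference of 0.20 lay mostly in knockdown 1. The bright scaffold genes Dlg1 and Epb41l2 differed by 0.06 and -0.02, and Mpp1 by 0.08. Epb41l2 had 1 of 5 and Mpp1 had 1 of 2 probe sets of the other sign. The scaffold with the largest difference was Mpp6 (-0.31), named after its values were seen, which differed by -0.65 in knockdown 1 and by 0.02 in knockdown 2, so that its groups overlapped. Nectins and their partners (9 genes) had a median of -0.01. Afadin (Afdn), which links nectins to actin, read 7.07 and 7.09 against 7.23 and 7.15, and the poliovirus receptor homologue Pvr differed by -0.04, although 3 of its 5 probe sets were higher. Nectin2, a dim gene, differed by 0.28 and was the 1 member of that list at an unadjusted p under 0.05 in limma.

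Partners of NCAM (12 genes with Ncam1 itself, the L1 family and the enzymes of polysialic acid) had a median of 0.04, with 1 below both controls and 4 above. Fgfr1, a receptor that NCAM is known to bind, read 8.14 and 8.17 in the controls, 7.71 in knockdown 1 and 8.37 in knockdown 2, on opposite sides of the controls. Fyn, a kinase downstream of NCAM, differed by 0.15. Proteases that shed or cut cadherins and Cadm1 had a median of 0.01 over 11 genes. Adam10, the main sheddase of N-cadherin, read 9.58 and 9.58 against 9.60 and 9.60, and the gamma-secretase subunit gene Psenen differed by 0.0031. Aph1a, another subunit gene, differed by -0.12 and Adam15 by 0.13, and 1 of 3 Adam10 and 3 of 4 Adam15 probe sets had the other sign. Adam19 was higher by 0.27 and the presenilin gene Psen2 lower by 0.32, both at an unadjusted p under 0.05 and neither passing (adjusted p = 0.743 and 0.728, limma).

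Transcription factors of the epithelial to mesenchymal transition, some of which repress E-cadherin, had a median of -0.03 over 10 genes, with 3 below both controls and 0 above. Zeb2 read 5.68 and 5.72 in the controls against 5.33 and 5.31 in the knockdowns, alike in both arrays (log2 difference -0.39, SE 0.08, unadjusted p = 0.00243, adjusted p = 0.615, limma), and 1 of its 4 probe sets was higher. Foxc2, a dim gene, differed by -0.23, and the bright Prrx1 and Tcf4 by 0.0008 and -0.10, with 2 of 5 Prrx1 probe sets lower. Desmosomal genes (8) had a median of -0.02, and Pkp2 of that list read 6.52 and 6.50 against 7.12 and 6.58, higher mostly in knockdown 1, while 1 of its 2 probe sets was lower and Pkp1 differed by -0.0086. Unclustered protocadherins (12) had a median of 0.04, with 4 below both controls and 3 above. Pcdh19 read 6.95 and 6.95 against 7.26 and 7.08, while 1 of its 2 probe sets was lower. Pcdh18 differed by 0.13, and 2 of its 3 probe sets were lower. The dim Pcdh15 differed by -0.20 (unadjusted p = 0.0444, adjusted p = 0.744, limma) and did not pass. The medians of all 9 lists lay between -0.04 and 0.04, beside 0.01 over all genes.

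**Figure D4:**
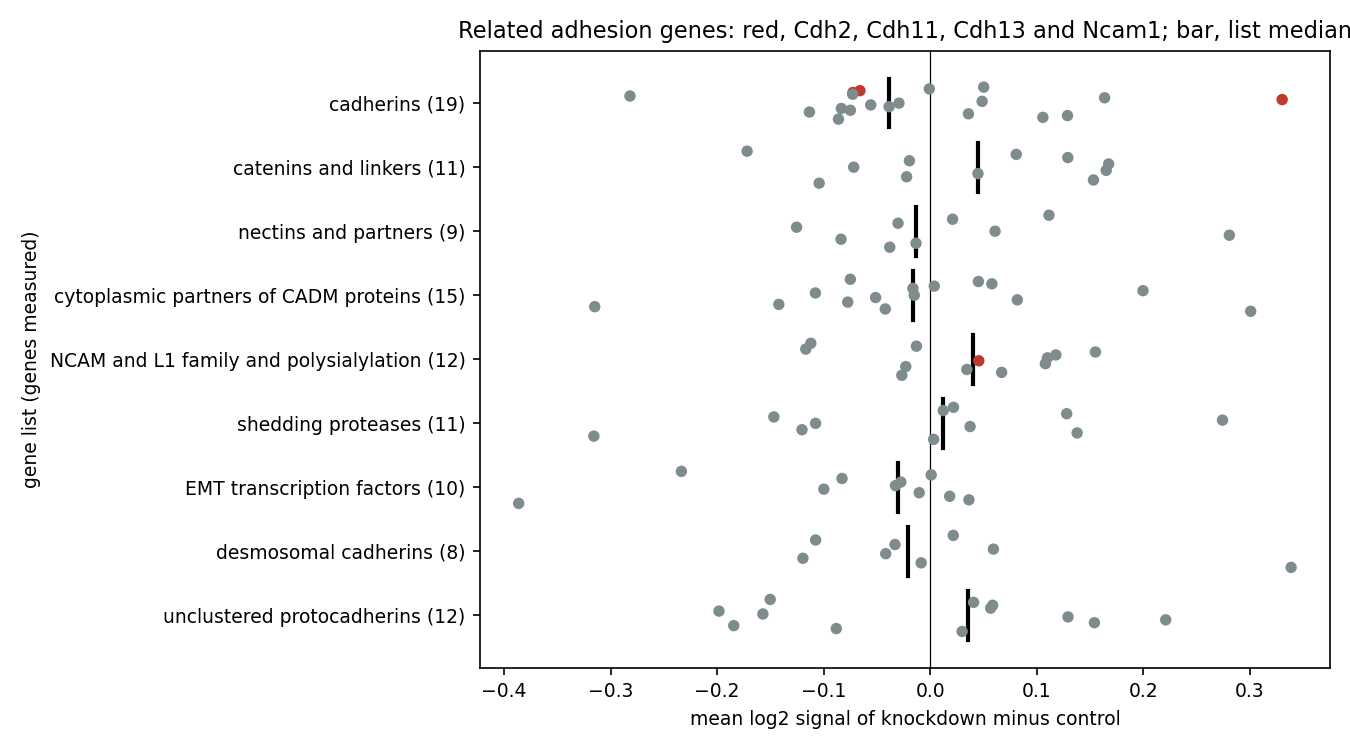
Mean log2 signal of knockdown minus control (horizontal axis) for each gene of 9 adhesion lists, each gene read by its brightest probe set; black bars are list medians, red points are Cdh2, Cdh11, Cdh13 and Ncam1, and positions across a row only separate points. Cdh2 lies at 0.33, the highest of the 19 cadherins, and Zeb2 lies at -0.39.

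Markers of other cell types were mostly dim and differed little. Of neuronal markers 0 of 8 reached the median signal, of epithelial 1 of 6 (Epcam), of endothelial 0 of 5, of blood 1 of 5, of skeletal muscle 0 of 5 and of adipocyte 0 of 3. Their mean log2 signals stayed between 3.25 and 4.09 on every array. Median differences ran from -0.01 for neuronal and endothelial markers to 0.17 for adipocyte markers. No marker passed in limma, where 0% of all genes did. The 2 markers of highest signal in each list, most of them dim, differed by -0.16 (Tubb3) and -0.11 (Rbfox3), 0.01 (Epcam) and -0.14 (Cldn4), 0.11 (Kdr) and -0.11 (Cdh5), -0.09 (Hba-a1) and -0.04 (Cd3e), -0.12 (Des) and -0.03 (Myod1), and 0.17 (Lep) and -0.17 (Adipoq). For Cdh5, Hba-a1 and Des 1 or more other probe sets had the opposite sign.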

How the data were processed

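RNA of 4 ATDC5 samples was read on Affymetrix mouse arrays after labelling with biotin. The authors deposited RMA values on a log2 scale for each probe set, as the submitters' processing notes name RMA; the program that ran it is not given in the sources used here. RMA makes the arrays' distributions alike and compresses the change of dim genes. The values ran from 2.17 to 12.72, from which the log base was inferred. There were 0 unused per-sample columns.

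Of 45141 probe sets, 104 array controls were left out. By the platform annotation, which can be old, 28898 carried 1 symbol, 551 several and 15692 none, controls included. Each of 17097 genes was read by its brightest probe set. The identifiers of the 7 adhesion genes with probe sets matched RefSeq's table for GRCm38.p6. The groups were compared in R 4.3.3 by limma 3.58.1 (eBayes with trend; residual degrees of freedom 2, prior 4.45; two-sided; threshold 0.05), with Benjamini-Hochberg adjustment over all genes or all probe sets. The step was tested on simulated data with equal spread in both groups. In these arrays the SD of the log2 difference within the knockdown pair was 1.93 times that within the control pair. Percentiles say how dim a probe set is and do not compare transcript levels. From each list the 2 brightest genes were named, and up to 3 with the largest difference among those at or above the median signal whose groups do not overlap. Other list genes were chosen after their values were seen, as defining markers or for an unadjusted p under 0.05. The adhesion genes and all lists were chosen with earlier results of these data known. Listed genes missing from the annotation were not analysed here. Alternatives were other scalings, a filter on genes below the 40th percentile of signal, the mean of probe sets, eBayes without trend or robust, an adjusted p of 0.1, the replicate block and leaving out each array.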

Additional observations from a re-analysis of the deposited data

How the results depend on the processing

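Cadm1 stayed lower under all 12 alternatives (log2 difference -2.11 to -0.47, the ends being the fits without knockdown 2 and without knockdown 1), Cadm3 stayed lower (-0.20 to -0.12) and Cadm4 (0.09 to 0.18) and Cdh2 (0.06 to 0.60) stayed higher. The mean of all probe sets turned Cdh11 to 0.0018 and Cdh13 to 0.038. Ncam1 ranged from -0.095 (without knockdown 1) to 0.20 (mean of probe sets), with 0.186 without knockdown 2. The number of genes passing was 0 in 10 of 13 alternatives, 1 over all probe sets, and between 0 and 2584 when an array was left out (561 without knockdown 1). Genes of the set with both knockdown arrays below the controls numbered 4, or 3 without Cadm1, which was chosen for its fall. With Cadm1 counted, they numbered 3 with quantile normalization, 2 with dim genes left out, 2 with the mean of probe sets, and 4 to 5 when an array was left out. Shares over all genes are not given here for these alternatives, so the counts are not a result about the set. Genes with both above numbered 1, but 0 with dim genes left out, 3 with the mean of probe sets, and 1 to 3 when an array was left out. Over the 22 probe sets, counted so after seeing the data, 8 to 11 lay below and 7 to 11 above when an array was left out. The 4 of Cadm1 are among those below, and a share over all probe sets is given only for the fit without knockdown 2. The sign changed at 5 without knockdown 1, 3 without control 1, 1 without knockdown 2 and 0 without control 2. It changed at 0 under quantile normalization or centring, which shift all genes nearly alike. The dim filter ranks genes, each by its brightest probe set, and not all probe sets. On that scale Cdh11 lay at the 6.53rd percentile, Cadm4 at the 29.0th and Cdh13 at the 30.2nd. All fell below the filter, which is why 2 and 0 remain. With the replicate block 0 genes passed and no call changed. Deviations of same-numbered arrays had a correlation of -0.0041 across genes. With 2 arrays a group this cannot show whether same-numbered arrays were handled together, and the titles do not say.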
